A study of Mus musculus with 4 samples.

Results

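The genes described here encode the hnRNP and SR splicing regulators, taken from mouse embryonic stem cells with and without the RNA helicase Mov10. Members were chosen by name alone: every symbol that starts with Hnrnp or is Srsf followed by a number, together with Syncrip, Tra2a, Tra2b, Pcbp1, Pcbp2 and Ptbp1. The rule found 36 of the 13831 gene symbols in the deposited table, with 17465 of its 1903919 reads. Below, the 24 hnRNP genes include Syncrip (hnRNP Q), Pcbp1 and Pcbp2 (the hnRNP E proteins) and Ptbp1 (hnRNP I), and the 12 SR genes include the SR-like factors Tra2a and Tra2b.

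The cells were of the J1 line, grown in serum with LIF, and carried either the wild-type genotype (WT) or a knockout of Mov10 (KO); how the knockout was made, and from how many clones, is not given in the sources used here. There were 2 libraries per genotype, numbered as in their titles (WT 1 and WT 2, KO 1 and KO 2). Nothing says whether they came from separate cultures, so p-values measure only the spread between these libraries. The method was direct RNA nanopore sequencing, which reads a native polyadenylated RNA strand together with its tail; the values are therefore an estimated tail length in nucleotides (nt) for each read, and the number of reads per gene. The purpose stated in the series title was to determine tail lengths in the 2 genotypes.

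Both families bind RNA as it is transcribed and help to decide which exons are kept. SR proteins carry a domain rich in arginine and serine and mostly promote the use of exons whose enhancers they bind, while many hnRNP proteins, Hnrnpa1 and Ptbp1 among them, repress splice sites. Many of these genes also control their own messenger RNA by splicing in an exon that leads to decay. The poly(A) tail is added in the nucleus and is shortened in the cytoplasm, where it bears on translation and stability.

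Libraries held from 351133 to 683239 reads with a tail above 0 nt. Mov10, the targeted gene, had 26 reads in WT 1 and 14 in WT 2, against 0 in KO 1 and 1 in KO 2. A list of 10 stem cell markers summed to between 7288 and 9637 reads per 1000000 reads (RPM) in each library. Of 10 fibroblast markers 7 had no read, Col1a1, Col1a2 and Col3a1 among them, and the list summed to 9.10 to 17.6 RPM; of 10 markers of differentiating cells 5 had none, with sums of 6.98 to 11.4 RPM. WT 1 stood apart in the members' read numbers. In WT 1, 21 of the 35 members tested for read number lay below all 3 other libraries, or 60.0%, against 31.0% of all 4815 genes tested. KO 2 leaned the other way: 14 members lay above all 3 other libraries there, or 40.0%, against 24.1% of all genes.

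The median tail over SR genes was longer than that over hnRNP genes in each of the 4 libraries, though single genes of the families overlapped. Taking the median tail of each gene with at least 20 reads in every library (18 hnRNP and 9 SR genes), the median over SR genes was 149.1 nt in WT 1, 125.6 nt in WT 2, 130.4 nt in KO 1 and 116.6 nt in KO 2. Over hnRNP genes it was 105.7, 111.4, 120.9 and 109.5 nt in the same order. The medians over all 1935 genes tested were 102.1, 109.4, 110.0 and 102.0 nt, so the hnRNP median lay above them in each library. The SR genes thus exceeded the hnRNP genes by 43.4 nt (WT 1), 14.1 nt (WT 2), 9.55 nt (KO 1) and 7.06 nt (KO 2). The WT gap was 28.8 nt ± 20.7 (SD, n = 2) and the KO gap 8.31 nt ± 1.76 (SD, n = 2), and WT 1 set most of the WT value, since WT 2 alone gave 14.1 nt. Members are not replicates, so no test of this gap was made. Tra2b lay below the hnRNP median in all 4 libraries.

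The same reads can be pooled over the genes of a family, in which case genes with many reads weigh most. Of the reads of those 9 SR genes, tails of 150 nt or more made up 46.2% for WT 1 (95% Wilson interval 43.1 to 49.4%) and 38.0% for WT 2 (34.8 to 41.4%). For the KO libraries they made up 38.2% (KO 1, 35.9 to 40.6%) and 31.5% (KO 2, 29.0 to 34.2%). For the 18 hnRNP genes the shares were lower in each library, at 27.2, 27.8, 31.4 and 27.1%. Over all reads such tails made up from 18.8 to 23.97% of a library. Tails under 30 nt were rare in both families, from 1.24 to 3.97% of SR reads and from 1.73 to 3.55% of hnRNP reads. Intervals cover counting error only, not the spread between genes of a family, and the difference between families was not tested.

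**Figure D1:**
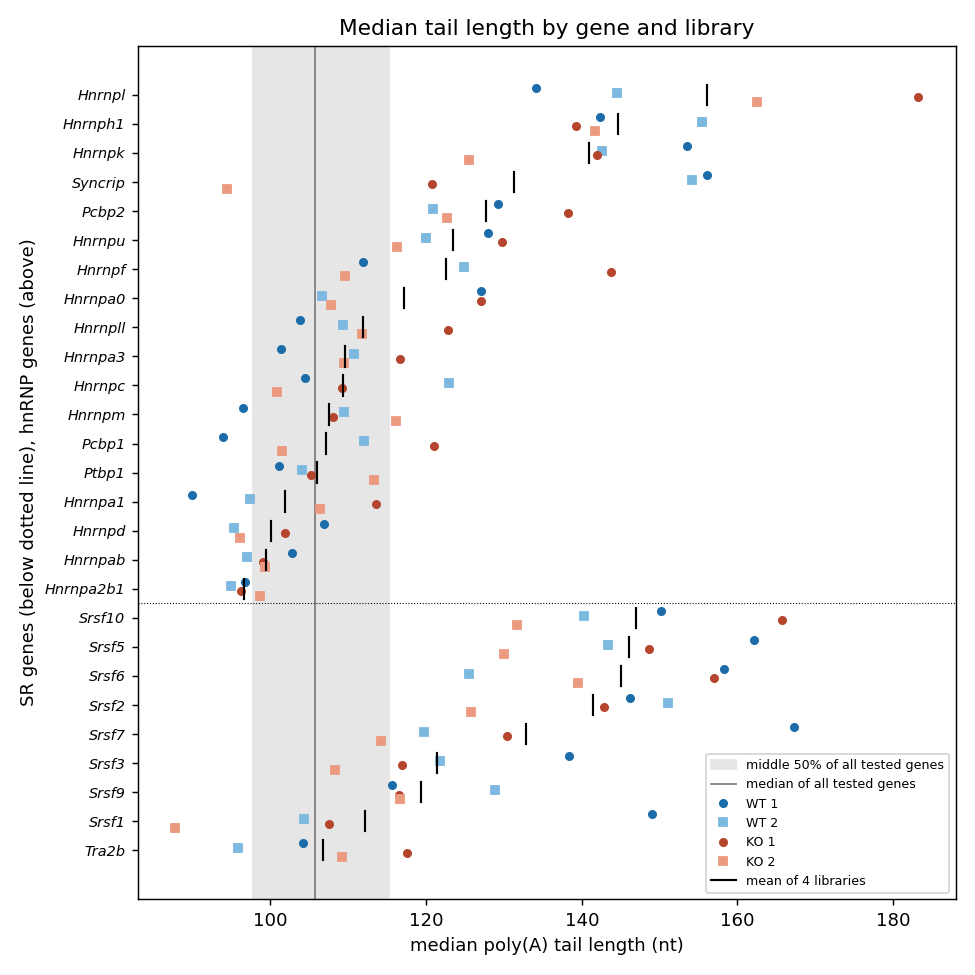
Median poly(A) tail length in nt (x axis) of each of the 27 members with at least 20 reads in every library (y axis), with 1 point per library, a bar at the mean of the 4 libraries, and a grey band over the middle 50% of gene means (97.8 to 115.2 nt) among all 1935 genes tested. All 9 SR means lie to the right of the all-gene median of 105.8 nt, while hnRNP means spread on both sides of it.

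Averaged over the 4 libraries, all 9 SR genes and 14 of the 18 hnRNP genes were above the all-gene median of 105.8 nt, and 7 SR genes and 8 hnRNP genes were above its upper quartile of 115.2 nt. Member means ran from 96.6 to 156.1 nt, with an SD over members of 17.4 nt, against a median SD of 10.3 nt for 1 member over the 4 libraries. The order of the members was partly kept between libraries: Spearman's rho over the 27 members was between 0.43 and 0.77 for pairs of libraries, lowest for WT 1 with KO 2. Those values are a description, since each library's genes share its depth.

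Among SR genes, Srsf10, which can act as a splicing repressor when dephosphorylated, had medians of 150.2 nt in WT 1, 140.2 nt in WT 2, 165.8 nt in KO 1 and 131.7 nt in KO 2. Srsf5, a serum- and stress-responsive SR gene, had 162.2, 143.4, 148.6 and 130.1 nt in that order. Both were above the upper quartile of all genes in every library. At the other end, Tra2b, which binds purine-rich exonic enhancers, had 104.2, 95.9, 117.6 and 109.2 nt, and its KO libraries lay above its WT libraries. Srsf1, the prototype of the family, had 149.1 nt in WT 1 on 34 reads (95% order-statistic interval 104.6 to 189.2 nt), 104.4 nt in WT 2, 107.6 nt in KO 1 and 87.8 nt in KO 2, so WT 1 alone was high. Srsf7, which with Srsf3 also links splicing to messenger RNA export, showed the same order of libraries at the top: 167.3 nt in WT 1 (138.8 to 189.6 nt) against 119.7, 130.4 and 114.2 nt.

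The hnRNP genes covered a wider range. Hnrnpl, which binds CA-rich stretches, had the longest mean, with 134.2 nt in WT 1, 144.5 nt in WT 2, 183.2 nt in KO 1 and 162.6 nt in KO 2 (log2 change 0.31, -0.03 to 0.65). Hnrnph1, a binder of G-rich stretches, followed with 142.3, 155.4, 139.3 and 141.7 nt. The shortest tails belonged to Hnrnpa2b1, with 96.8, 94.95, 96.2 and 98.6 nt, and to Hnrnpab, with 102.8, 97.0, 99.0 and 99.3 nt. These 2 abundant messages also differed least between libraries, with SDs over the 4 libraries of 1.53 and 2.42 nt.

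The number of reads was taken as the measure of RNA abundance. Each direct RNA read is 1 molecule, so levels were compared between genes as scaled RPM without dividing by length; a library with fewer cells and one with less RNA per cell cannot be told apart. Hnrnpab was the most abundant member by total reads, at 784.0 and 1003 scaled RPM in the WT libraries and 692.0 and 933.2 in the KO libraries. Hnrnpa1 followed with 733.6, 764.2, 752.0 and 805.3 scaled RPM. Next among the hnRNP genes was Hnrnpa2b1, with 542.0, 555.8, 559.3 and 558.2. Hnrnpa1 and Hnrnpa2b1, whose proteins are close relatives, were thus even across all 4 libraries when all their reads were counted. For Hnrnpa2b1, 39.1% of the reads lay on a transcript that also carries another symbol. That transcript had 54, 100, 165 and 95 reads in the same library order, or 25.1, 50.0, 42.1 and 37.5% of the gene's reads. The remaining reads were therefore not even: their level was highest in WT 1 and lowest in WT 2. Without that transcript the log2 change from WT to KO was -0.025. Of the SR genes Srsf3, the shortest of the SR proteins, led with 547.1, 572.4, 593.6 and 710.4 scaled RPM, and Srsf2, an SR protein that stays in the nucleus, had 380.7, 305.7, 342.5 and 423.6. Srsf7 had 310.1, 286.2, 343.9 and 423.6. The lowest member was Srsf4, with 37 reads in all. All members together took 0.758 and 0.948% of the WT libraries (0.853% ± 0.134, SD, n = 2) and 0.933 and 1.03% of the KO libraries (0.981% ± 0.0676, SD, n = 2).

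**Figure D2:**
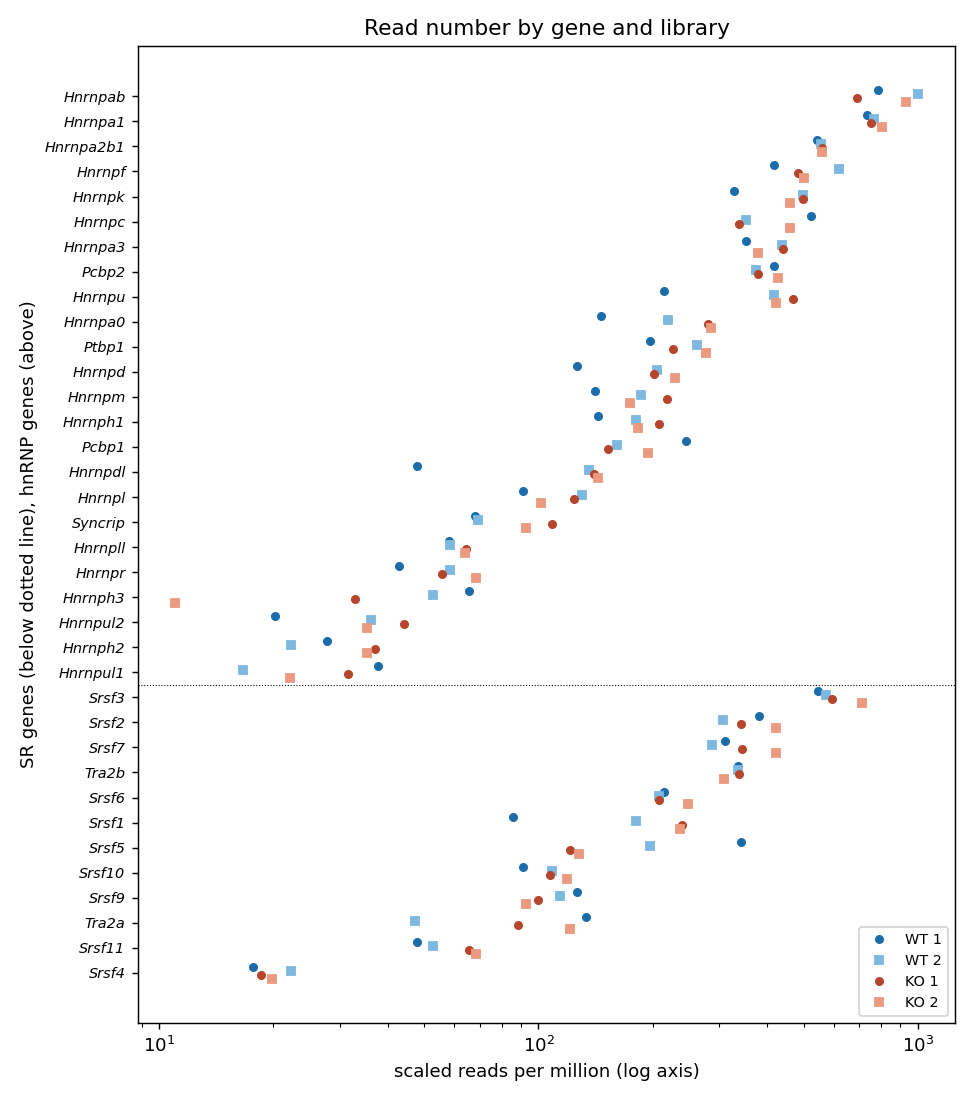
Scaled RPM (x axis, log scale) of all 36 members (y axis), with 1 point per library. The points of WT 1 lie left of the other libraries for Srsf1, Hnrnpdl, Hnrnpu and Hnrnpa0 and right of them for Srsf5 and Pcbp1.

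In the comparison of genotypes by read number, most members had more reads in KO, and no member passed the test. With limma's voom and Benjamini-Hochberg adjustment over 4815 genes, 0 of the 35 members tested passed an adjusted p of 0.05, and the background was 0% of all genes; Srsf4 had too few reads to enter. At an unadjusted p under 0.05 there were 5 members, against 10.3% of all genes. The median log2 change over members was 0.15, with 27 higher and 8 lower in KO, or 77.1% higher, against a median of -0.01 and 49.4% higher over all genes. The hnRNP genes had 19 higher and 5 lower (median 0.13), and the SR genes 8 higher and 3 lower (median 0.18). The hnRNP median was 0.07 without WT 1 and 0.33 without WT 2, and the SR median was 0.07 without WT 2, with 6 higher and 5 lower. Both KO libraries lay above both WT libraries for 12 members, 34.3%, where 20% of all genes did so; the reverse held for 3 members, against 20.5% of all genes. In 10 of those 12, WT 1 was the lower of the WT libraries. With WT 2 as the only WT library, both KO libraries lay above it for 16 members (45.7%), against 36.4% of all genes. Without WT 1, 25 of 35 members were still higher in KO (limma's voom, 0 calls), with a median of 0.09, against 48.1% of all genes.

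Srsf5 had the smallest unadjusted p. It had 342.9 and 197.3 scaled RPM in WT 1 and WT 2, and 121.3 and 128.0 in KO 1 and KO 2, on 136, 71, 85 and 58 reads, so the KO libraries were close together and below both WT libraries, which differed from each other. The log2 change was -1.07 (95% interval -1.70 to -0.44, limma, adjusted p = 0.180; 2.87e-05 to 0.998 over the alternatives), and -0.66 without WT 1. Srsf1 moved the other way, from 85.7 scaled RPM in WT 1 and 180.6 in WT 2 to 238.3 in KO 1 and 236.1 in KO 2. Its log2 change was 0.93 (0.26 to 1.60, limma, adjusted p = 0.307; 0.000937 to 0.998 over the alternatives), and it was 0.39 without WT 1 and 1.46 without WT 2. Hnrnph3, another G-rich binder of the hnRNP H group, had 65.5, 52.8, 32.8 and 11.0 scaled RPM, on 26, 19, 23 and 5 reads. Its log2 change of -1.38 spanned -2.38 to -0.37 (limma, adjusted p = 0.315; 0.0220 to 0.998 over the alternatives).

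Without WT 2, the WT genotype rests on WT 1 alone and has no replicate, so only effect sizes are given for that fit. Its log2 changes included 0.94 for Hnrnpa0, 1.54 for Hnrnpdl, 1.06 for Hnrnpu and 1.46 for Srsf1. They also included -1.54 for Hnrnph3 and -1.46 for Srsf5. For Hnrnpu, a nuclear scaffold-binding protein, the values were 214.3 and 416.8 scaled RPM in WT 1 and WT 2, and 468.0 and 423.6 in KO 1 and KO 2. WT 2 thus lay just below the KO libraries, and the log2 change of 0.58 became 0.10 without WT 1. Hnrnpdl, with 47.9 in WT 1 against 136.2, 139.8 and 143.4, showed the same arrangement (0.81, and 0.05 without WT 1). Hnrnpa0 had 146.2 and 219.5 in WT against 279.7 and 284.6 scaled RPM in KO (0.65, and 0.36 without WT 1). The genotypes did not overlap for any of these genes, but WT 2 lay further from the KO libraries for Hnrnpa0.

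**Figure D3:**
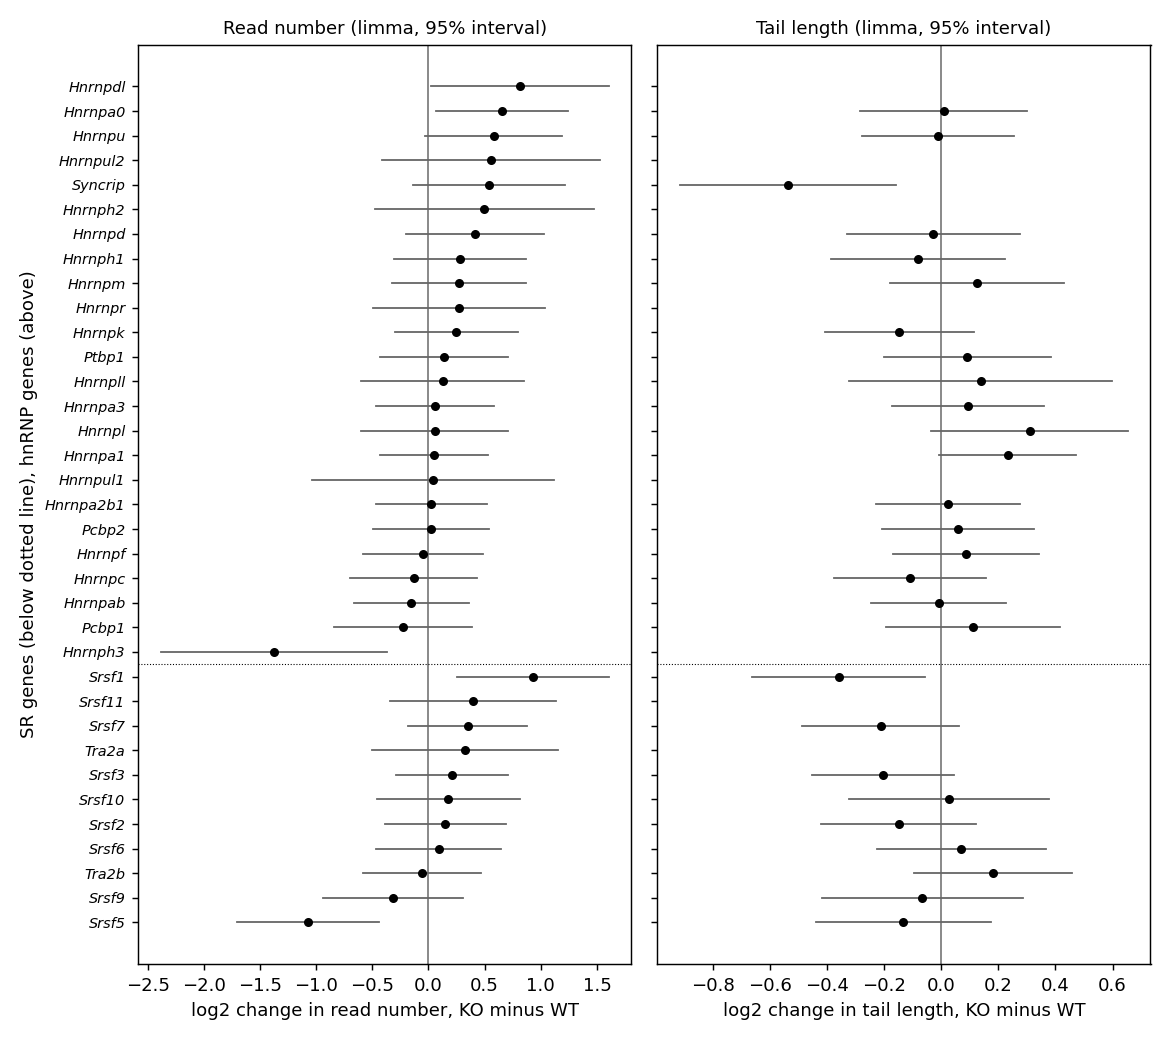
Log2 change from WT to KO (x axis) in read number (left) and in median tail length (right) for each member (y axis), with the 95% interval of limma's fit to 2 libraries per genotype; members with fewer than 20 reads in a library have no tail value. Most intervals span 0 on both sides, and none of these changes passed an adjusted p of 0.05.

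The comparison of tail lengths, which the study was made for, gave no call among the members either. Of 1935 genes with at least 20 reads in each library, 27 were members, and limma called 0 of them at an adjusted p of 0.05, with a background of 0% (2 members and 2.33% of all genes at an unadjusted p under 0.05). The 9 members left out had from 37 to 231 reads in all. The median log2 change was 0.01 over members and 0.01 over all genes, with 14 members longer and 13 shorter in KO. The families differed in sign: 11 hnRNP genes were longer and 7 shorter (median 0.04), while 3 SR genes were longer and 6 shorter (median -0.13), a difference that was not tested. Without WT 1 the SR median was -0.04, with 4 longer and 5 shorter, and the hnRNP median 0.03. Without KO 1 the families no longer differed in sign. The hnRNP median was then -0.02 (7 longer, 11 shorter) and the SR median -0.23 (1 longer, 8 shorter). Tails of both KO libraries were longer than those of both WT libraries for 5 members (Hnrnpa1, Hnrnpl, Hnrnpll, Ptbp1 and Tra2b), or 18.5%, against 14.7% of all genes. They were shorter for another 5 (Hnrnph1, Hnrnpk, Srsf2, Srsf3 and Syncrip), against 11.8% of all genes. The standard error of a member's log2 change ran from 0.12 to 0.24. Without KO 1 the median over members was -0.07, with 8 of 27 longer, and that over all genes was -0.04, with 39.6% longer.

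Syncrip, a largely cytoplasmic hnRNP that takes part in messenger RNA transport and decay, had the largest difference. Its median tail was 156.1 nt in WT 1 and 154.2 nt in WT 2, against 120.7 nt in KO 1 and 94.5 nt in KO 2, on 27, 25, 76 and 42 reads. The WT libraries were nearly equal and the KO libraries lay below them. The share of its reads with 150 nt or more was 51.9 and 52.0% in WT against 36.8 and 23.8% in KO. The log2 change was -0.54 (95% interval -0.92 to -0.16), and the adjusted p of 0.9998 missed the threshold (limma; 0.470 to 0.9998 over the alternatives). With 25 reads, the 95% order-statistic interval of the WT 2 median ran from 108.2 to 174.9 nt.

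Srsf1 came next, at -0.36 (-0.66 to -0.06, limma, adjusted p = 0.9998; 0.0626 to 0.9998 over the alternatives). Its libraries overlapped, since the WT 2 median of 104.4 nt lay between those of KO 1 and KO 2, and without WT 1 the change was -0.10. Hnrnpa1, which represses splice sites that Srsf1 promotes, changed in the opposite direction at 0.23 (-0.01 to 0.47, limma, adjusted p = 0.9998; 0.273 to 0.9998 over the alternatives). Its tails had medians of 90.0 nt in WT 1 and 97.4 nt in WT 2, against 113.6 nt in KO 1 and 106.4 nt in KO 2, and rested on 275 to 527 reads per library. The genotypes did not overlap for Hnrnpa1, and its level in reads hardly moved (log2 change 0.05, -0.43 to 0.53). Of the other SR genes, Srsf3 had 138.4 and 121.8 nt in WT against 117.0 and 108.3 nt in KO (-0.21, -0.46 to 0.04), and Srsf2 had 146.2 and 151.1 nt against 142.8 and 125.7 nt (-0.15, -0.42 to 0.12).

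The 27 members tested both ways allow the tail change to be set beside the change in reads. Spearman's rho was -0.38 over the 27 members, -0.68 over the 9 SR genes and -0.32 over the 18 hnRNP genes, against 0.04 over all 1935 genes. Without WT 1 it was -0.26 over the members, -0.17 over the SR genes and -0.16 over the hnRNP genes. These values describe genes that share the same 4 libraries, and no p is given. Syncrip and Srsf1 had the most negative tail changes together with more reads in KO (log2 changes in reads of 0.54 and 0.93), whereas Srsf5 had fewer reads and a tail change of -0.13.

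**Figure D4:**
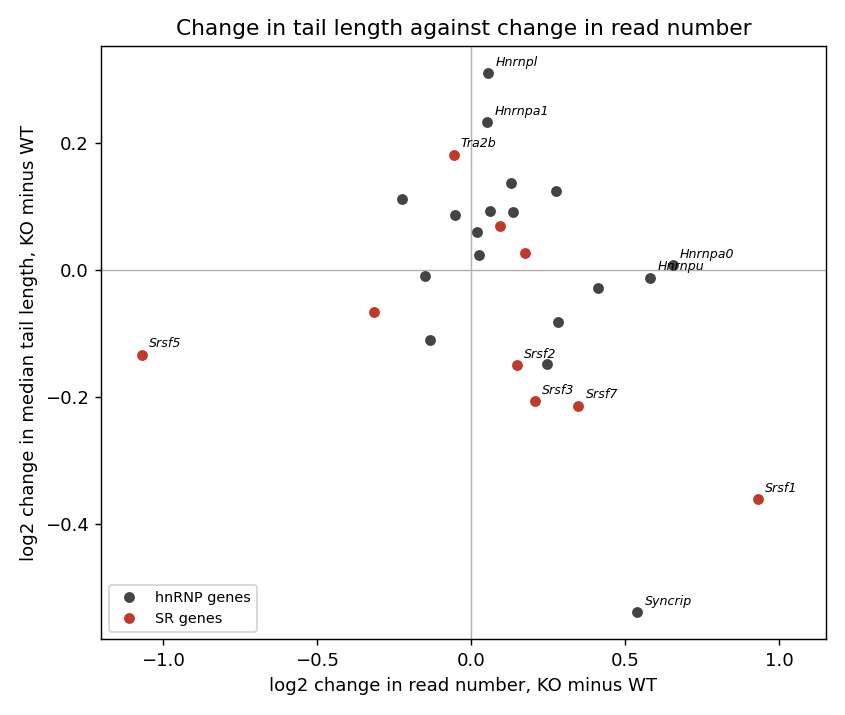
Log2 change in median tail length (y axis) against log2 change in read number (x axis), both KO minus WT, with 1 point for each of the 27 members tested for both. Syncrip and Srsf1 lie at the lower right, and most other members lie within 0.25 of 0 on the tail axis.

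The table assigns each read to an Ensembl transcript, so it also shows which transcripts of a splicing regulator were read. Nanopore RNA reads start at the 3′ end and can stop short of the 5′ end, which limits how well similar transcripts are told apart. For 99 transcripts of 24 members, the share of the gene's reads was compared on a logit scale with limma; 0 passed an adjusted p of 0.05, where the background was 0% of 2496 transcripts, and 4 had an unadjusted p under 0.05, against 3.25% of all. The smallest adjusted p of a member was 0.924. A fit with a library left out leaves a genotype without a replicate. In some of those fits calls rose over all transcripts as well as among the members, so they are not a result about the members.

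Hnrnpm, whose protein binds GU-rich RNA, had the smallest p. Transcript ENSMUST00000234893.1 took 1.79% of its reads in WT 1 and 2.99% in WT 2, but 9.15% in KO 1 and 12.7% in KO 2, from 1, 2, 14 and 10 reads. The log2 odds changed by 1.96 (SE 0.55, limma, adjusted p = 0.924), and by 1.69 to 2.23 with a library left out. For Hnrnpa1, transcript ENSMUST00000230171.1 held 9.28 and 8% of reads in WT against 3.80 and 3.01% in KO. That was a change of -1.41 in log2 odds (SE 0.44, limma, adjusted p = 0.924), and of -1.57 to -1.25 with a library left out. Both transcripts were minor ones, with at most 27 reads per library. They were named because their p-values were among the smallest of the members, so the separation of their genotypes follows in part from that choice. How often genotypes separate over all transcripts was not counted.

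In Hnrnpa2b1 the share was highest in WT 1. Transcript ENSMUST00000090002.9 held 33.0% of the gene's reads there (95% Wilson interval 27.1 to 39.6%), against 6.5% in WT 2 (3.84 to 10.8%), with KO shares of 3.32% (KO 1, 1.95 to 5.59%) and 2.77% (KO 2, 1.35 to 5.60%). The log2 odds changed by -2.52 (SE 0.90, limma, adjusted p = 0.924), and by -1.13 without WT 1. WT 2 also lay above both KO libraries. The leading transcript of Hnrnpa1, ENSMUST00000087351.8, likewise held 63.9% of reads in WT 1 against 35.3, 29.4 and 37.5% in WT 2, KO 1 and KO 2. For these genes the level from all reads was even across libraries while the mix of transcripts in WT 1 differed. For Hnrnpa2b1 that level includes the reads on a transcript with more than 1 symbol, and without them it was not even.

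**Figure D5:**
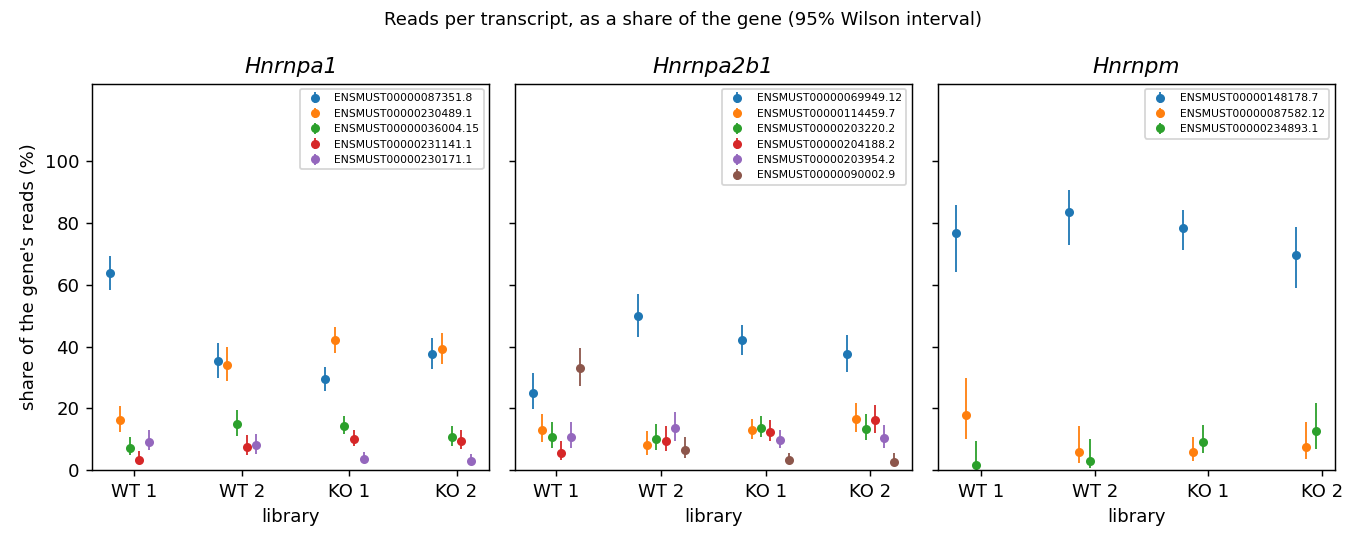
Share of a gene's reads (y axis, %) on each of its main transcripts in the 4 libraries (x axis) for Hnrnpa1, Hnrnpa2b1 and Hnrnpm, with 95% Wilson intervals; up to 6 transcripts with at least 20 reads in all are drawn. In WT 1 the shares of ENSMUST00000087351.8 and ENSMUST00000090002.9 lie above those in the 3 other libraries.

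Tails also differed between transcripts of a member. The 2 main transcripts of Hnrnpa1 had medians of 84.4 nt (ENSMUST00000087351.8) and 115.3 nt (ENSMUST00000230489.1) in WT 1 and of 80.1 and 110.8 nt in WT 2. In KO 1 they were 111.1 and 114.9 nt and in KO 2 99.7 and 108.7 nt. The second was thus longer by 30.9 and 30.6 nt in WT but by 3.83 and 8.95 nt in KO. The KO libraries lay above the WT libraries for ENSMUST00000087351.8, on 97 to 186 reads per library, and overlapped with them for the other. This difference was not tested. For Hnrnpu, Hnrnpa3 and Hnrnpf, the other members with the most reads on their 2 main transcripts, the difference between those transcripts changed sign over the libraries, within -17.7 to 6.59 nt. Among 6 further members with such a pair, chosen after their values were seen, the difference kept its sign in all 4 libraries for Hnrnpa2b1 (11.7 to 40.8 nt), Pcbp2 (2.01 to 23.4 nt) and Hnrnpk (-45.9 to -14.1 nt). The shorter-tailed transcript of the Hnrnpa2b1 pair is the one that also carries another symbol. Of the Pcbp2 reads, 76.6% lay on transcripts with more than 1 symbol, so these pairs are less certain.

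The authors' deposited classes placed 12 members among Mov10 targets with m6A, 8 among targets without m6A and 9 among non-targets, and left 7 in no class; how the classes were made is not given in the sources used here. The median log2 change in read number was 0.27 over 11 targets with m6A, 0.06 over 8 targets without m6A, 0.15 over 9 non-targets and 0.21 over 7 members without a class. For tail length, the class medians lay between -0.04 and 0.03. Target status was not tested against these changes.

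Srsf2 lies on chromosome 11 among genes with more reads in KO. All 10 tested genes nearest to it, 5 on each side in the RefSeq order of GRCm38.p6, were higher in KO, by log2 changes of 0.59 to 1.54 with a median of 0.92. Srsf2 itself had a change of 0.15 (-0.39 to 0.69), below each of its 10 neighbours; the difference was not tested. Its reads share transcripts with the adjoining gene Mettl23 in the table, and without reads on such transcripts it could not be tested.

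A list of 58 other splicing regulators, their kinases and partners was measured beside the members. Of 41 tested for read number, 26 were higher and 15 lower in KO (63.4% higher, against 49.4% of all genes), with a median log2 change of 0.22 and 0 calls (limma). Without WT 1, 21 were higher and 20 lower, with a median of 0.03. Of 22 tested for tail length, 9 were longer and 13 shorter, with a median of -0.04 and 0 calls; without WT 1, 12 were longer and the median was 0.03. Averaged over the 4 libraries, the listed genes' tails had a median of 122.2 nt. The same median was 132.9 nt for SR genes, 110.7 nt for hnRNP genes and 105.8 nt for all genes, so long tails were not particular to the members. Tardbp, an RNA-binding protein of the hnRNP type, had 29 and 51 reads in WT against 178 and 123 in KO, a log2 change of 1.36 (0.70 to 2.03, limma, adjusted p = 0.130; 2.87e-05 to 0.998 over the alternatives), and 0.88 without WT 1. Sfpq, a nuclear paraspeckle protein, had a log2 change of 1.07 (0.35 to 1.79, limma, adjusted p = 0.261; 0.000122 to 0.998 over the alternatives), and 0.41 without WT 1. For tail length, Matr3, a nuclear matrix RNA-binding protein, had 175.8 and 160.1 nt in WT against 145.8 and 132.7 nt in KO (-0.27, -0.58 to 0.03), and Rbm3, a cold-induced RNA-binding protein, had -0.22 (-0.49 to 0.05; limma, adjusted p = 0.9998 for both). In the same libraries, 9 of the 10 stem cell markers had fewer reads in KO, with a median of -0.42 and 0 calls; their part in the members' changes was not tested.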

How the data were processed

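Polyadenylated RNA was selected on oligo(dT) beads and sequenced with the SQK-RNA002 kit on a MinION, per the labels' protocols, and minimap2 2.20 is named in the submitters' processing notes. The basecaller, the tail length tool, the annotation and any read filter are not given in the sources used here. The authors' table lists 1 read per line with its transcript, symbol, library and tail length in nt. All reads above 0 nt were used, which left out 3.

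Members and lists were chosen with earlier results of these data known. All 36 symbols matched the mouse gene name table. Of the members' reads, 22.3% lay on transcripts that carry more than 1 symbol. All reads did so for Hnrnpa3 (with the repeat RLTR19-int and Gm5641) and Srsf3 (with Gm12355). Most reads did so for Pcbp2 (with Map3k12) and Srsf2 (with Mettl23), and 39.1% for Hnrnpa2b1, so these genes are less certain.

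Tail length was tested with limma 3.58.1 in R 4.3.3 on log2 medians (at least 20 reads in each library), read number with limma's voom (0.5 reads added, median-of-ratios scaling, mean of at least 10 reads), and transcript shares with limma on log2 odds (0.5 reads added, mean share of 5 to 95%). P-values were adjusted by Benjamini-Hochberg over all features. Scaled RPM are reads per 1000000 after the same scaling. Medians have 95% order-statistic intervals and shares 95% Wilson intervals. The tests were also tried on simulated data with the same noise setting for every gene and 100 changes planted per size. For read number, 3 changes of log2 1 and 73 of log2 2 were recovered, and for transcript share 9 and 64. For tail length, 74 changes of log2 0.5 and 100 of log2 1 were recovered. False calls numbered 2 for read number, 10 for transcript share and 7 for tail length. Having 0 calls for read number or transcript share therefore says little about changes of log2 1. Noise was not set to differ between genes, so none of these rates need hold for the real libraries, for tail length either. Mov10 itself, with a log2 change of -5.09 in read number, was not called there. Full values are given for members with the most reads, the longest and shortest tails, the 3 smallest unadjusted p-values in each test, Syncrip, Srsf2, and the 4 genes with the most reads on 2 well-read transcripts. Among listed non-members they are given for the 2 smallest p-values in each test. No protein sequences were used. Alternatives changed the summary, filters, scaling, model, block and libraries. Leaving out a library leaves a genotype without a replicate, and the ranges of adjusted p over the alternatives include such fits. Python 3.11.15, numpy 2.4.6, pandas 2.3.3, scipy 1.17.1 and matplotlib 3.10.9 were used.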

Additional observations from a re-analysis of the deposited data

How the results depend on the processing

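Depth limits the tail test: 9 of 36 had too few reads for the tail test, and Syncrip had 25 to 27 reads per WT library. Over all genes, limma's 0 calls for tail length became 1 with at least 10 reads, and 0 to 4 with a library left out. For read number the 0 calls became 7 with scaling by total reads, 96 with no filter and 0 to 367 with a library left out; limma-trend gave 0. For transcript shares they became 0 to 690 with a library left out. Among members, the calls with a library left out were 0 for tail length, 0 to 6 for read number and 0 to 33 for transcript shares. The median log2 change over members was -0.070 to 0.037 for tail length and 0.085 to 0.24 for read number with a library left out. Scaling by total reads gave 0.26 for read number, with an all-gene median of 0.11. The SR minus hnRNP gap, 18.5 nt as a mean of the 4 libraries, was 15.4 nt with geometric means, 22.8 nt with at least 50 reads, 18.3 nt on single-symbol transcripts and 22.4 nt for Srsf against Hnrnp symbols alone, a split chosen after seeing the data; it stayed above 0 in every library under these. Same-numbered libraries did not deviate together (r = 0.01 for tail length over 1935 genes and 0.02 for read number over 4815). This cannot show whether they were prepared together, which the labels do not say. The replicate block gave 66 calls among 4815 genes for read number, 1 of them among the 35 members tested (Srsf5, limma's voom, adjusted p = 0.0395). It gave 0 for the other tests.

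Some small log2 changes turned sign. With a library left out, tail changes ran from -0.052 to 0.032 for Hnrnpab (turned without WT 1), -0.11 to 0.28 for Hnrnpf (turned without KO 1) and -0.091 to 0.067 for Hnrnpu (turned without WT 1 or KO 2). They ran from -0.14 to 0.19 for Srsf10 (turned without WT 2 or KO 1) and -0.46 to 0.028 for Srsf7 (turned without WT 1). Changes in read number ran from -0.088 to 0.22 for Hnrnpa3 (turned without WT 1 or KO 1), -0.36 to 0.081 for Hnrnpab (turned without WT 2 or KO 1), -0.33 to 0.23 for Hnrnpf (turned without WT 2) and -0.20 to 0.32 for Hnrnpl (turned without WT 1 or KO 1). They ran from -0.0085 to 0.32 for Srsf2 (turned without WT 2) and -0.11 to 0.0026 for Tra2b (turned without KO 2). With the geometric mean the tail change of Hnrnpu was 0.050. For read number, Hnrnpa2b1 had -0.025 on single-symbol transcripts, and scaling by total reads gave 0.071 for Hnrnpf and 0.062 for Tra2b. Family and list values without a library were added after seeing the data. The cause was not tested.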
